A study of Homo sapiens with 6 samples.

Results

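The transcription factor NRF2 (NFE2L2) is the main inducer of antioxidant and detoxification genes. In unstressed cells KEAP1 presents NRF2 to a CUL3 ubiquitin ligase for degradation. Oxidants and electrophiles modify KEAP1, and the NRF2 that escapes pairs with a small MAF protein on antioxidant response elements, which the repressor BACH1 can occupy in its place. The 10 genes described here, NQO1, HMOX1, GCLM, GCLC, TXNRD1, SRXN1, SLC7A11, AKR1B10, AKR1C1 and AKR1C3, are widely used as targets of this pathway. They were chosen by symbol, with earlier results of these data known, and all 10 were found among the 64253 genes of the deposited count tables. All 10 also had enough reads to be among the 16439 genes tested.

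PC-3 is a human castration-resistant prostate cancer cell line. RNA of 3 samples carrying an shRNA against CdGAP, a GTPase-activating protein for Rac1 and Cdc42 encoded by ARHGAP31, was compared with RNA of 3 samples carrying a control shRNA (shCon), as unscaled read numbers for each gene. Per the methods the shRNAs were delivered by lentivirus, CdGAP-depleted PC-3 cells were selected with puromycin and grown as single-cell clones, and cloning is not stated for the control cells. A difference between a clone and the control cells therefore cannot be told apart from an effect of CdGAP depletion. The methods list a single shRNA sequence against CdGAP for PC-3, so an effect of that sequence on other genes cannot be told apart either. The methods call the 3 samples of a group independent, but do not say that they came from separate infections. The p-values therefore measure the spread between these samples.

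The libraries held 33182796 to 43154039 counted reads. ARHGAP31 was measured at 26.4, 27.1 and 26.9 CPM, the read count scaled to a common library size, in shCdGAP replicates 1 to 3 and at 58.9, 60.6 and 58.2 CPM in the shCon replicates, which fitted as -1.14 on the log2 scale (SE, the standard error, 0.0409, adjusted p = 8.75e-08, edgeR quasi-likelihood test with Benjamini-Hochberg adjustment). The shCdGAP mean was 45.3% of the shCon mean. By qPCR the paper reports a stronger loss of CdGAP mRNA in its PC-3 clone, and which clone was sequenced is not stated. The epithelial markers KRT8, KRT18 and EPCAM had reads in every library and summed to 646 to 725 CPM in shCdGAP and 516 to 529 CPM in shCon libraries. EPCAM carried this difference, at 203 to 224 CPM against 81.7 to 84.4 CPM (log2 fold change 1.35, adjusted p = 5.02e-08), while KRT8 (0.06) and KRT18 (0.09) did not pass. The prostate luminal markers KLK2 and KLK3 had 0 reads in all 6 libraries. The 4 leukocyte markers summed to at most 0.276 CPM. The endothelial pair PECAM1 and CDH5 summed to 2.42 to 6.06 CPM in shCdGAP and 5.69 to 5.84 CPM in shCon libraries, and the 4 fibroblast markers, led by COL1A2, to 333 to 342 and 301 to 307 CPM. COL1A2 itself did not pass (-0.04), while COL1A1 (1.67, adjusted p = 4.38e-08) and LUM (3.01, adjusted p = 8.80e-06) were higher in shCdGAP cells. The part of these cell type markers in the results was not tested.

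Replicate 2 of shCdGAP stood apart. It was the library farthest from the other shCdGAP libraries for 58.3% of tested genes, against 19.1% for replicate 1 and 22.7% for replicate 3, and for 8 of the 10 NRF2 target genes. Its ARHGAP31 level was that of the other shCdGAP libraries. Values without this library are given beside the calls that it changes. Replicate 2 was singled out from these same data. In addition, each fit estimates the spread between libraries anew, so p-values of fits without replicate 2 are not comparable with those of all libraries. For ARHGAP31 the SE was 0.0417 without replicate 2 and 0.0409 with it. The adjusted p was 1.18e-25 without replicate 2 and 8.75e-08 with it (edgeR). A pass only in such a fit is a description.

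The NRF2 target genes did not move as a block. By an adjusted p under 0.01, 5 rose in shCdGAP cells (HMOX1, AKR1C1, AKR1C3, TXNRD1 and SLC7A11), 2 fell (AKR1B10 and NQO1) and 3 did not pass (GCLM, GCLC and SRXN1). Across all tested genes 46.2% passed, 24.1% as higher and 22% as lower, so a passing gene is common in this comparison. With the further requirement of an absolute log2 fold change above 1, which 12.8% of tested genes met (8.56% higher, 4.19% lower), 3 of the 10 were higher and 1 lower. The median log2 fold change was 0.36 over the 10 genes and 0.01 over all tested genes. Measured against the mean of the shCon libraries, this median lay at 0.48, 0.17 and 0.48 in shCdGAP replicates 1, 2 and 3, and between -0.03 and 0.01 in the shCon libraries. Groups did not overlap for 5 higher and 2 lower genes, the same 7 that passed, where 67.1% of tested genes had groups that did not overlap (34.4% higher, 32.7% lower). Without shCdGAP replicate 2, 7 of the 10 rose and 2 fell, where 60% of tested genes passed. In counts from whole cultures, a change in every cell and a change in the share of cells that express a gene cannot be told apart.

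**Figure D1:**
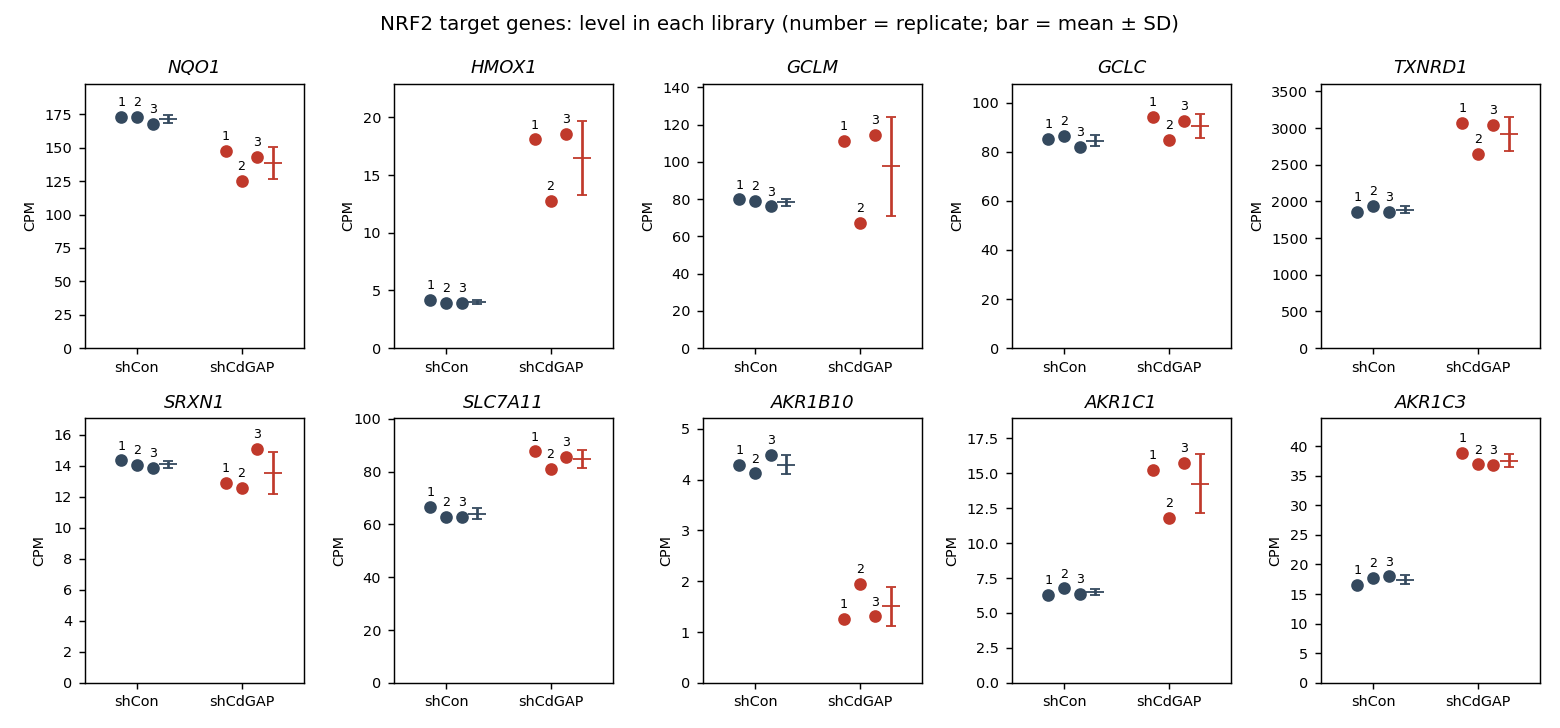
Level of each NRF2 target gene in CPM (linear axes from 0) in the 3 shCon and 3 shCdGAP libraries, with each replicate number above its point and the mean ± SD beside the points. Replicate 2 of shCdGAP lies below the other shCdGAP libraries for HMOX1, GCLM, TXNRD1 and AKR1C1, above them for AKR1B10, and for GCLM it lies below every shCon library.

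HMOX1, the enzyme that opens the heme ring to release iron, carbon monoxide and biliverdin, had the largest change of the 10. At its locus (ENSG00000100292, chromosome 22, 35380361 to 35394214) shCdGAP replicates 1 to 3 gave 733, 555 and 637 reads, and shCon gave 176, 165 and 129. Scaled to library size these were 18.1, 12.7 and 18.5 CPM against 4.20, 3.91 and 3.90 CPM. Every shCdGAP library was above every shCon library, and the lowest of them was replicate 2. The shCdGAP mean was 16.4 ± 3.22 CPM and the shCon mean 4.003 ± 0.166 CPM (SD, n = 3 each), which is 4.11-fold higher, or 2.03 on the log2 scale (SE 0.150, adjusted p = 6.66e-06, edgeR).

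TXNRD1, the cytosolic selenoenzyme that uses NADPH to reduce thioredoxin, gave the most reads of the 10. The gene (ENSG00000198431, chromosome 12 from 104215779 to 104350305) gave 124470, 115551 and 104562 reads in shCdGAP and 77969, 81912 and 61430 in shCon libraries. In mean CPM it ranked 21st of all tested genes in shCon and 6th in shCdGAP cells. It rose from 1886 ± 47.3 to 2922 ± 233 CPM (SD, n = 3 each), with a log2 fold change of 0.63 (SE 0.0568, adjusted p = 1.85e-05, edgeR). All 3 shCdGAP libraries lay above all 3 shCon libraries. The transcript of its substrate went the other way. TXN, thioredoxin itself, was at 175, 182 and 178 CPM in shCdGAP and at 366, 367 and 366 CPM in shCon libraries, lower by a log2 value of -1.04 (SE 0.0322, adjusted p = 4.08e-08, edgeR). TXN lies on chromosome 9 among genes that were lower together, the 50 nearest tested genes having a median log2 fold change of -0.59, while the genes around TXNRD1 had a median of 0.24. The part of the position in the level of TXN was not tested.

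SLC7A11 is the transport subunit that imports cystine in exchange for glutamate, the supply route of cysteine for glutathione. The gene (ENSG00000151012, chromosome 4 from 138164097 to 138242349) was at 87.7, 81.0 and 85.6 CPM in shCdGAP and 66.7, 62.9 and 62.8 CPM in shCon libraries. The groups did not overlap, and the log2 fold change was 0.40 (SE 0.0450, adjusted p = 7.06e-05, edgeR). SLC3A2, the heavy chain that carries SLC7A11 to the cell surface, rose less, from 186 ± 4.26 to 216 ± 3.98 CPM (SD, n = 3 each, log2 fold change 0.22, SE 0.0340, adjusted p = 0.000580, edgeR).

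The subunits of glutamate-cysteine ligase, the enzyme of the rate-limiting step of glutathione synthesis, did not pass the test with all libraries. GCLM, the modifier subunit (ENSG00000023909, chromosome 1 from 93885205 to 93909456), was at 111, 67.2 and 114 CPM in shCdGAP replicates 1, 2 and 3 and at 79.9, 79.0 and 76.1 CPM in shCon libraries. Replicates 1 and 3 were above, and replicate 2 below, every shCon library. The log2 fold change over all libraries, 0.32, had SE 0.207 (adjusted p = 0.241, edgeR), and without shCdGAP replicate 2 it was 0.52 (SE 0.0310, adjusted p = 3.42e-18). GCLC, the catalytic subunit (ENSG00000001084, chromosome 6 from 53497341 to 53616970), was at 94.1, 84.8 and 92.7 CPM in shCdGAP and 85.2, 86.3 and 82.1 CPM in shCon libraries. Here replicate 2 lay within the shCon range. Its change was 0.10 on the log2 scale (SE 0.0478, adjusted p = 0.107), and 0.13 without replicate 2 (SE 0.0313, adjusted p = 0.000263). GCLM reads per GCLC read were 0.915 to 0.937 in shCon libraries, and 1.18, 0.792 and 1.24 in shCdGAP replicates 1, 2 and 3.

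NQO1, which reduces quinones to hydroquinones and is among the most used readouts of NRF2, was lower in CdGAP-depleted cells. The gene (ENSG00000181019, chromosome 16 from 69706996 to 69726951) was at 148, 125 and 143 CPM in shCdGAP and 173, 173 and 168 CPM in shCon libraries. Each shCdGAP library lay below each shCon library, replicate 2 the farthest. The means were 139 ± 12.1 and 172 ± 2.89 CPM (SD, n = 3 each), 19.1% lower, with a log2 fold change of -0.31 (SE 0.0595, adjusted p = 0.00198, edgeR). Of the 50 tested genes nearest to NQO1, 41 had a negative log2 fold change, with a median of -0.18, and the part of the position in its level was not tested. NQO1 passed under all 12 alternatives, with adjusted p from 2.18e-10 to 0.00970 (edgeR). The lower of these is from the fit without shCdGAP replicate 2, where the log2 fold change was smallest in size, at -0.25.

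SRXN1, the sulfiredoxin that restores over-oxidised peroxiredoxins, was at 12.9, 12.6 and 15.1 CPM in shCdGAP and 14.3, 14.1 and 13.9 CPM in shCon libraries (ENSG00000271303, chromosome 20 from 646615 to 653370). The groups overlapped, and the log2 fold change was -0.06 (SE 0.0801, adjusted p = 0.523, edgeR). It was -0.03 without shCdGAP replicate 2 and -0.16 without replicate 3, and passed in neither fit. In the annotation used for counting, 85% of its exon bases are shared with another gene model of the same strand, ENSG00000270299. A read that falls in both models is not counted under the deposited settings, and only 406 of 2698 exon bases of SRXN1 are unshared, so the count is of a small part of the transcript.

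**Figure D2:**
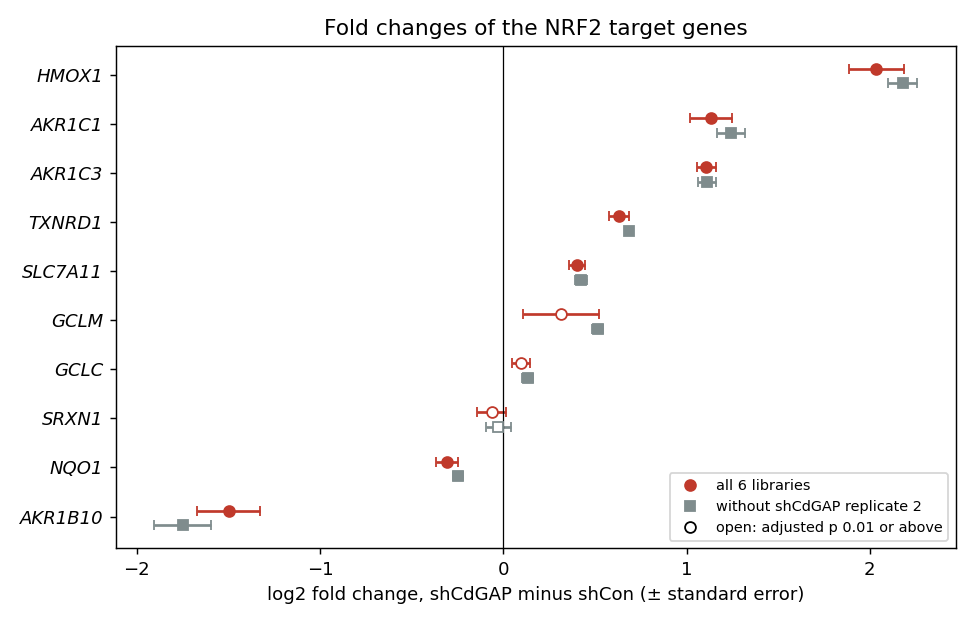
Log2 fold change (shCdGAP minus shCon, ± SE) of the 10 NRF2 target genes with all 6 libraries (circles) and without shCdGAP replicate 2 (squares), filled where the adjusted p was under 0.01. With all libraries the values run from 2.03 for HMOX1 to -1.50 for AKR1B10, without replicate 2 from 2.18 to -1.75, and GCLM and GCLC are filled only without replicate 2.

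Of the 3 aldo-keto reductases among the 10 genes, AKR1C1 and AKR1C3 rose and AKR1B10 fell. AKR1C1, which inactivates progesterone, and AKR1C3, which converts androstenedione to testosterone and also makes prostaglandin F, lie in a cluster of near-identical genes on chromosome 10. AKR1C1 (ENSG00000187134, from 4963253 to 5107522 in the deposited model) was at 15.2, 11.8 and 15.7 CPM in shCdGAP and 6.32, 6.75 and 6.39 CPM in shCon libraries. AKR1C3 (ENSG00000196139, from 5035354 to 5107686) was at 38.8, 36.9 and 36.8 CPM in shCdGAP and 16.6, 17.7 and 17.98 CPM in shCon libraries. For both genes all shCdGAP libraries lay above all shCon libraries. The log2 fold changes by edgeR were 1.13 for AKR1C1 (SE 0.115, adjusted p = 3.86e-05) and 1.11 for AKR1C3 (SE 0.0526, adjusted p = 3.88e-07).

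AKR1C2, the paralog that inactivates dihydrotestosterone, had 214, 164 and 172 reads in shCdGAP and 57, 52 and 40 reads in shCon libraries, a log2 fold change of 1.88 (SE 0.166, adjusted p = 1.65e-05). AKR1C4, the member known from liver, had 1 read in all 6 libraries together. Reads that align to several of these genes are not counted, so the split between AKR1C1, AKR1C2 and AKR1C3 is uncertain. The 3 genes together gave 59.3, 52.5 and 57.6 CPM in shCdGAP against 24.3, 25.7 and 25.6 CPM in shCon libraries. Reads that align to several of the genes are missing from this sum as well. The deposited AKR1C1 model also reaches farther than the GENCODE v44 model on the same build, which ends at 4983283, and the AKR1C2 model (4922564 to 5135226) spans both neighbours on the opposite strand.

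AKR1B10, a reductase of retinal and other aldehydes (ENSG00000198074, chromosome 7 from 134527592 to 134541408), was counted with only 51, 85 and 45 reads in shCdGAP, against 180, 174 and 148 in shCon libraries. Its level went down from 4.30 ± 0.178 CPM to 1.51 ± 0.387 CPM (SD, n = 3 each), or -1.50 on the log2 scale (SE 0.173, adjusted p = 8.42e-05, edgeR). Replicate 2, at 1.95 CPM, was the shCdGAP library nearest to the shCon range of 4.12 to 4.48 CPM. Its neighbour and paralog AKR1B1, the aldose reductase of the polyol pathway, rose from 34, 31 and 23 reads in shCon to 116, 83 and 94 reads in shCdGAP libraries (log2 fold change 1.73, SE 0.206, adjusted p = 0.000104). AKR1B15, the third gene of this cluster, had at most 2 reads in any library.

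The promoters of these genes were searched for the letters shared by antioxidant response elements. RefSeq windows on GRCh38.p14, of 250 bases before to 50 bases after a gene's start, were given for 7 of the 10 genes (9 windows). HMOX1, SLC7A11 and AKR1B10 had no window. The core TGACNNNGC on either strand was found for 2 of the 7, GCLM and TXNRD1. It was found for 4384 of all 27305 genes with a window, and in 13.3% of all 35116 windows. An element farther than 250 bases before a start lies outside these windows, so a missing match does not show that a gene lacks one. The letters of an AP-1 site, TGANTCA, were in no window of the 7 genes and in 7.71% of all windows, and since both motifs begin with TGA a single site can match both. The following 30-base stretches are shown because they set a gene that depended on replicate 2 beside one that rose in every library, with the match in capitals. GCLM lies on the minus strand and is written in the gene's direction, with the first base of the match 34 bases before the start (chr1:93909446-93909475). The upstream TXNRD1 start has a match 99 bases before it (chr12:104215669-104215698) and another at 8 bases, and the downstream start has 1 at 102 bases (chr12:104286919-104286948).
GCLM: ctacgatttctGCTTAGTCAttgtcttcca
TXNRD1 upstream start: tacacgggctaTGACTTCGCtgttgtcacc
TXNRD1 downstream start: agtggatttctGCTTTGTCAttctgactct
The GCLM match and that of the downstream TXNRD1 start read the core on the opposite strand. These matches are letters in a sequence and were not measured as bound.

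No window of AKR1C1, AKR1C2 or AKR1C3 held the core. Stretches before their start sites are shown to set the 3 copies side by side. They were cut to lie outside the exons of the deposited AKR1C1 and AKR1C2 models. The part of their likeness in the assignment of reads and in the levels was not tested. Over the 250 bases before the start, AKR1C1 and AKR1C2 had 245 identical of 246 aligned bases (99.6%), and AKR1C1 and the first AKR1C3 window 189 of 239 (79.1%). For AKR1C1 these 250 bases run on into the deposited model, which starts at 4963253. RefSeq starts differ from the ends of the deposited models. Shown is a stretch near the distal end of these windows, chr10:4963169-4963252 on the plus strand for AKR1C1, chr10:5004024-5004107 on the minus strand for AKR1C2 and chr10:5048543-5048622 on the plus strand for AKR1C3, with capitals for bases that have no identical partner in AKR1C1.
AKR1C1: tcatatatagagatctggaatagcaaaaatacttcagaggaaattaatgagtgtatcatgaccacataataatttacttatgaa
AKR1C2: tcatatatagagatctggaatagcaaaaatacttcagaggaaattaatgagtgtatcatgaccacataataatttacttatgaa
AKR1C3: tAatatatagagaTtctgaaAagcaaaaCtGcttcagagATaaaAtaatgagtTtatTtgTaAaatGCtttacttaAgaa
The AKR1C1 and AKR1C2 lines are identical over 84 bases, and the AKR1C3 line of 80 bases holds 15 capitals.

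Levels were compared between genes per kilobase of exon not shared with another gene of the same strand. In shCon cells the order was TXNRD1 (281 CPM per kilobase), NQO1 (52.7), SRXN1 (34.7), GCLM (14.4), GCLC (10.7), SLC7A11 (6.65), AKR1C3 (3.95), AKR1B10 (2.46), HMOX1 (1.66) and AKR1C1 (0.739). The ranges of no neighbours in this order overlapped over the 3 libraries. In shCdGAP cells the first 7 places kept their order, and SLC7A11 and AKR1C3 then overlapped (8.40 to 9.09 and 8.36 to 8.79 CPM per kilobase). HMOX1 took the place before AKR1C1, at 6.84 CPM per kilobase, and AKR1B10 was last at 0.864. The values of AKR1C1 rest on the long deposited model and those of SRXN1 on its short unshared part. Those of AKR1C1 and AKR1C3 also lack reads that align to several genes of their cluster.

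**Figure D3:**
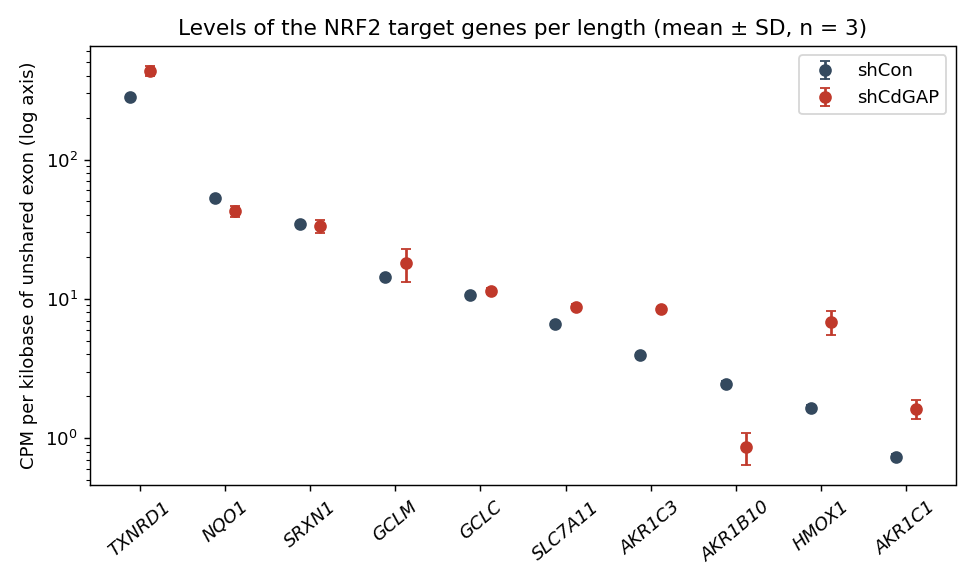
Level per kilobase of unshared exon (log axis, mean ± SD, n = 3) of the 10 NRF2 target genes in shCon and shCdGAP cells, ordered by the shCon level. TXNRD1 lies highest in both groups, at 281 and 435 CPM per kilobase, and AKR1B10 goes from the place before HMOX1 to the last.

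The regulators of NRF2 were listed next, 12 genes of which 2 rose, 4 fell and 6 did not pass, with a median log2 fold change of -0.07. Among these 12 the share passing was 50.0%, beside 46.2% of all tested genes (24.1% higher, 22% lower). NFE2L2, the gene for NRF2, was at 94.9, 90.0 and 93.8 CPM in shCdGAP and 114, 111 and 110 CPM in shCon libraries. All shCdGAP libraries were lower (log2 fold change -0.26, SE 0.0369, adjusted p = 0.000287, edgeR). KEAP1 was at 145, 119 and 151 CPM in shCdGAP and 146, 152 and 145 CPM in shCon libraries, with replicate 2 the lowest (log2 fold change -0.10, adjusted p = 0.335). Leaving out shCdGAP replicate 2 gave -0.01 for KEAP1 (adjusted p = 0.770), and leaving out replicate 3 gave -0.18 (adjusted p = 0.0783). CUL3, the scaffold of the ligase, fell (log2 fold change -0.32, adjusted p = 6.76e-05), as did BTRC, the receptor of a KEAP1-independent ligase (-0.49, adjusted p = 2.09e-05). RBX1, the RING subunit, was lower by -0.20 (adjusted p = 0.00687) and missed 0.01 under 6 of 12 alternatives. GSK3B, the kinase that marks NRF2 for that second ligase, did not pass (0.08, adjusted p = 0.0874), although without shCdGAP replicate 2 it did (0.10, adjusted p = 0.000908).

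SQSTM1, the autophagy receptor that draws KEAP1 away from NRF2 and is itself an NRF2 target, had the largest rise of the regulators. It was at 1279, 1093 and 1307 CPM in shCdGAP and 705, 725 and 722 CPM in shCon libraries (log2 fold change 0.77, SE 0.0639, adjusted p = 1.28e-05, edgeR). Of the 46 tested genes nearest to SQSTM1, 36 had a positive log2 fold change, with a median of 0.31. The small MAF gene MAFK rose by a log2 fold change of 0.27 (adjusted p = 0.000231), while MAFG (-0.10, adjusted p = 0.162, and -0.04 without shCdGAP replicate 2) and MAFF (0.02, adjusted p = 0.807) did not pass. Around MAFK, 32 of 39 tested genes had a positive log2 fold change, with a median of 0.22. The part of the position in the levels of SQSTM1 and MAFK was not tested. BACH1, the repressor that competes for HMOX1, was at 56.2, 70.8 and 54.7 CPM in shCdGAP and 60.0, 63.9 and 62.3 CPM in shCon libraries. Replicate 2 lay above and the others below every shCon library (log2 fold change -0.03, adjusted p = 0.782), and leaving it out gave -0.17 (adjusted p = 7.64e-05). NFE2L1, the related factor NRF1, did not pass (0.05, adjusted p = 0.298).

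Genes of heme handling and ferritin, the iron store, mostly rose. Of 7 listed, 6 rose, none fell and FECH, which inserts iron into heme, did not pass (log2 fold change -0.05, adjusted p = 0.320), and the median log2 fold change was 0.43. This is a share of 85.7% passing, beside 46.2% of all tested genes (24.1% as higher). SLC48A1, a heme transporter, rose from 13.6 ± 1.15 to 20.1 ± 0.548 CPM (SD, n = 3 each, log2 fold change 0.56, adjusted p = 0.000155, edgeR). FTL, the ferritin light chain, was at 642, 631 and 637 CPM in shCdGAP and 433, 435 and 426 CPM in shCon libraries (log2 fold change 0.56, SE 0.0314, adjusted p = 1.04e-06). Replicate 2 was the lowest shCdGAP library for FTL, by a small margin.

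In the list of glutathione synthesis, transport and recycling, 1 of 9 genes rose (SLC3A2), 1 fell and 7 did not pass. That is 22.2% passing, beside 46.2% of all tested genes. The lower gene, CBS, which makes cystathionine from homocysteine, went from 3.60 ± 0.128 to 2.59 ± 0.240 CPM (SD, n = 3 each, log2 fold change -0.48, adjusted p = 0.00758, edgeR), and it missed 0.01 under 7 of 12 alternatives. Of 22 glutathione peroxidases and transferases, 21 were matched by symbol and 15 were tested, of which 6 rose, none fell and 9 did not pass (median log2 fold change 0.15). The highest were the transferases GSTO2, with 157, 225 and 114 reads in shCdGAP against 49, 89 and 51 in shCon libraries (log2 fold change 1.36, SE 0.238, adjusted p = 0.00117), and GSTM4 (0.71, SE 0.0765, adjusted p = 5.43e-05). Of the 7 enzymes of NADPH supply, 3 rose and 4 did not pass (42.9% passing). IDH1, the cytosolic isocitrate dehydrogenase, rose from 79.0 ± 0.789 to 111 ± 3.57 CPM (SD, n = 3 each, log2 fold change 0.49, adjusted p = 7.11e-06). PGD, of the pentose phosphate pathway, rose by a log2 fold change of 0.20 (adjusted p = 0.00269) and missed 0.01 in each fit that lacked 1 library, except the fit lacking shCdGAP replicate 2. Of the 50 tested genes nearest to PGD, 42 had a positive log2 fold change, with a median of 0.355. The part of the position in its level was not tested.

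Thioredoxin, peroxiredoxin, superoxide and peroxide genes went both ways. Of 18 listed, 17 were matched and tested, of which 3 rose, 6 fell and 8 did not pass (median -0.02 on the log2 scale). The share passing was 52.9%, beside 46.2% of all tested genes. The sestrin genes SESN3 (log2 fold change 0.98, SE 0.0756, adjusted p = 7.17e-06) and SESN2 (0.81, SE 0.0920, adjusted p = 7.90e-05) rose most. SOD3, the extracellular superoxide dismutase, fell from 3.04 ± 0.132 to 1.43 ± 0.494 CPM (SD, n = 3 each, log2 fold change -1.07, adjusted p = 0.00303, edgeR). Each fit lacking 1 shCon library missed 0.01, at adjusted p between 0.0107 and 0.0139.

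Among 24 further reductases and detoxification genes, 20 were tested, of which 6 rose, 5 fell and 9 did not pass, and the median log2 fold change was -0.0008. The share passing was 55.0%, beside 46.2% of all tested genes. AKR1C2 and AKR1B1, given above, had the largest rises. OSGIN1, an oxidative stress induced growth inhibitor, was at 14.3, 10.9 and 14.8 CPM in shCdGAP and 6.44, 7.01 and 6.48 CPM in shCon libraries (log2 fold change 1.00, SE 0.122, adjusted p = 0.000120, edgeR). ALDH3A1, an aldehyde dehydrogenase of epithelia, had 2, 2 and 6 reads in shCdGAP and 214, 210 and 165 reads in shCon libraries. Summed over libraries and scaled to their sizes, its shCdGAP level was 1.68% of the shCon level, with an exact 95% interval of 0.801% to 3.11% that covers counting error only. Replicate 3 held 6 of the 10 shCdGAP reads, and leaving it out moved the log2 fold change from -5.84 to -6.64. ABCC4, an exporter of organic anions, fell from 88.97 ± 2.13 to 24.97 ± 2.47 CPM (SD, n = 3 each, log2 fold change -1.83, adjusted p = 9.79e-08). It lies on chromosome 13 where the 50 nearest tested genes had a median log2 fold change of -1.65, and the part of that position in its level was not tested. Around the 10 NRF2 target genes such medians lay between -0.18 and 0.24, over 34 to 50 genes each.

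Over all 7 lists 97 of 99 genes were matched and 87 were tested, of which 27 rose, 16 fell and 44 did not pass, a share of 49.4% passing beside 46.2% of all tested genes. The median log2 fold change was 0.08.

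**Figure D4:**
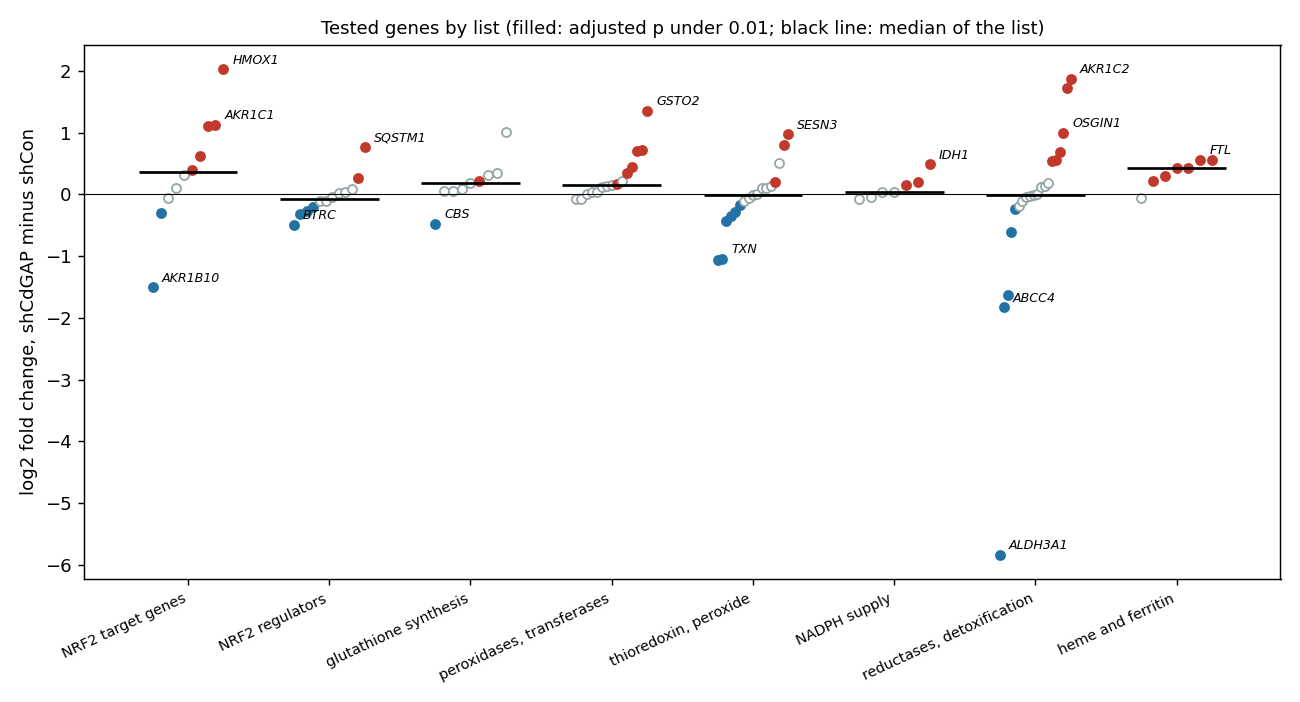
Log2 fold change (shCdGAP minus shCon) of each tested gene in the NRF2 target genes and the 7 pathway lists, filled red (higher) or blue (lower) where the adjusted p was under 0.01, with a black line at each list's median. The medians of the NRF2 target genes (0.36) and of heme and ferritin (0.43) are the highest, and ALDH3A1, at -5.84, lies lowest of all genes shown.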

How the data were processed

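RNA of 3 shCdGAP and 3 shCon samples of PC-3 cells was sequenced, and the authors deposited the unscaled counts for Ensembl genes, 1 table per library. Reads were aligned with STAR 2.5.1b to GRCh38. Per the file headers, featureCounts 1.6.0 counted strand-specific read pairs on Ensembl release 77, while the methods and processing notes name featureCounts 1.4.6 and the methods a single-read kit. Symbols were taken from a name table that matched 40995 of 64253 genes (63.8%).

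Genes were kept by filterByExpr, scaled by TMM (factors 0.987 to 1.01) and tested in R 4.3.3 with edgeR 4.0.16 (robust quasi-likelihood F test, no pairing), with Benjamini-Hochberg adjustment over 16439 genes. A gene passed at an adjusted p under 0.01. A standard error is the size of the log2 value over the root of its F statistic, and CPM uses TMM-scaled library sizes. Libraries of a group differed by more than counting noise (chi-square per degree of freedom 2.68 to 36.1). The members and lists were chosen with earlier results of these data known. Named genes are the members, ARHGAP31, the regulators, the paralogs AKR1C2, AKR1C4, AKR1B1 and AKR1B15, SLC3A2, and the 2 highest and 2 lowest passing genes of each other list whose average log2 CPM reached 1; FECH, TXNIP and the markers EPCAM, COL1A1 and LUM were singled out after their values were seen. Alternatives were DESeq2 1.42.0, library-size and upper-quartile scaling, different filters and thresholds, a replicate block and each library left out. The tests were first tried on simulated data.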

Additional observations from a re-analysis of the deposited data

How the results depend on the processing

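All 10 NRF2 target genes kept their direction under the 12 alternative fits, and 118 of 120 values kept their side of the threshold. The exceptions were GCLM and GCLC, which passed only without shCdGAP replicate 2. HMOX1 ranged from 1.93 to 2.18, AKR1C1 from 1.05 to 1.24, AKR1B10 from -1.75 to -1.39 and NQO1 from -0.37 to -0.25 on the log2 scale. With a fold limit of 1 on the log2 scale, 3 NRF2 target genes were higher and 1 lower, 4 and 5 genes of the pathway lists, and 1407 and 689 of all genes. With each library left out in turn, between 10 and 22 pathway genes were lower, the lowest count without shCon replicate 2 and the highest without shCdGAP replicate 2. Over all tested genes, 2871 were lower in the former fit and 5022 in the latter. The cause was not tested. With each library left out in turn MAFF, which did not pass, ranged from -0.0587 to 0.0537, turning sign without shCdGAP replicate 2 and without shCon replicate 1 (-0.0351). BACH1 ranged from -0.171 to 0.0256, turning sign without shCdGAP replicate 1 (0.0092) and 3. Of 347 values for the other named genes, 21 lost and 2 gained the threshold. With the replicate number as a block, 5 NRF2 target genes were higher and 2 lower, as without it, and 3808 and 3421 of all genes. Deviations of same-numbered libraries correlated at 0.0306 to 0.0499, each library best with its own number, which is a hint from the data and not a pairing by design. Low reads limit AKR1B10 (45 to 180 per library), HMOX1 and AKR1C2. They also limit AKR1B1 (23 to 116), SOD3 (30 to 131), GSTO2 (49 to 225), CBS (95 to 155) and ALDH3A1 (2 to 214).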

Other observations

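TXNIP, the inhibitor of thioredoxin, was chosen after its values were seen because it varied widely within the CdGAP-depleted libraries. It was at 149, 227 and 140 CPM in shCdGAP replicates 1, 2 and 3 and at 116, 122 and 125 CPM in the shCon libraries. Every shCdGAP library lay above every shCon library, yet the difference, 0.51 on the log2 scale (SE 0.194, adjusted p = 0.0659, edgeR), did not pass 0.01. Replicate 2 was thus the highest library for TXNIP and the lowest for GCLM. The endothelial marker PECAM1 also followed that library, at 2.37, 5.99 and 2.71 CPM in shCdGAP against 5.62, 5.45 and 5.48 CPM in shCon libraries.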
